A study of Danio rerio with 40 samples.

Results

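The heat shock proteins and their co-chaperones were described in 40 single cells from the zebrafish heart. Members were all genes of the deposited table whose symbol, ignoring case, begins as a heat shock protein, a heat shock factor, a DNAJ protein of the A, B or C class or a BAG protein, or reads ubb or ubc. The rule found 91 of 33737 genes: 17 of the hsp70 class, 4 of the hsp90 class, 9 small heat shock proteins, 45 of the hsp40 (DNAJ) class, 2 of the hsp60 and hsp10 chaperonin, 7 BAG genes, 3 heat shock factors and 2 ubiquitin genes. HSPBAP1 and HSF2BP also match the rule by their names, although each encodes a binding partner and not a heat shock protein or factor. The cells came from heart ventricles of EK strain zebrafish aged 6 months. These fish carry tcf21:nucEGFP, a nuclear reporter of tcf21, a transcription factor gene used to mark the epicardium, the outer layer of the heart. The ventricles were digested at 37 °C with Liberase DH under stirring, with cells collected every 5 min. Cells positive for EGFP and negative for propidium iodide were sorted and captured 1 by 1 on the Fluidigm C1, a microfluidic device. All 40 cells belong to 1 group with no treatment and no second condition, and the labels name no animal, day or batch, nor how many ventricles were pooled. They are therefore 1 sample, no test was run, and an SD describes the spread between cells.

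Heat shock proteins are chaperones: they hold, refold or hand on proteins that have lost their shape. hsp70 proteins bind short stretches of unfolded chains, J proteins (hsp40) deliver the chains and start the ATP cycle of hsp70, and BAG proteins make hsp70 let go. hsp90 proteins finish the folding of kinases and receptors, small heat shock proteins keep damaged proteins from clumping, and ubiquitin marks what cannot be rescued for the proteasome. Heat shock factors switch on the inducible copies within minutes of warming or other stress, while the constitutive copies serve folding in unstressed cells.

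Values are expected read counts scaled to a total of 1000000 per cell (CPM), not divided by transcript length. Where genes or classes are compared by level below, the order is one of reads and not of transcript numbers. A gene was called detected at 5 or more expected reads. Total reads ranged from 340293 to 5695770 per cell and genes detected from 161 to 10792, and 25 cells with at least 2000 genes are called kept. TCF21 was detected in 37 of 40 cells, and 8 epicardial marker rows took 0.00104 to 1.78% of reads, with a median of 0.295%. A set of 8 fibroblast marker rows took 0.00192 to 3.07% of reads, with a median of 0.897%. Of 3 endothelial rows, cdh5 and TIE1 were at 0 in every cell and FLI1 was detected in 4 cells, with 0.162% of reads at the highest in cell 26. Cells 7 and 33 held 17.4% and 16.3% of their reads in 11 cardiomyocyte marker rows, of which 8 and 7 were detected, against 0.998% at most, in cell 18, and a median of 0.000617% in the other 38 cells. Of these rows, myh6 and 1 of 2 named TNNI1 were at 0 in every cell. Cell 11 held 3.21% of its reads in 10 macrophage marker rows, with 6 detected, against 0.0820% at most in the other 39 cells. Of the macrophage rows, 2 of 3 named MPEG1 were at 0 in every cell. Cell 40, with the most genes detected, had 8 cardiomyocyte and 8 macrophage rows detected at 0.389% and 0.0804% of its reads, beside all 8 epicardial rows, and cell 18 had 7 cardiomyocyte rows detected. In 5 cells (1, 17, 20, 24 and 34) genes with a mitochondrial symbol took over 20% of reads, from 23.6% to 47.6%. The part of cell type and mitochondrial reads in the results that follow was not tested.

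Detection split the 91 members into a small group found almost everywhere and a long tail. There were 11 members (12.1%) detected in at least 90% of the 40 cells, where 0.572% of all genes were, and 6 of the 11 were detected in all 40. In the kept cells the count was 12, against 1.43% of all genes. The 11 were HSPA2, hsp70.3, hsp70.1, hsp70l, HSPA8, HSPA4 (ENSDARG00000004754), HSP90AA1, HSP90AB1, HSPB1, dnajb1b and UBB. Between 10 and 90% of cells held each of a further 28 members, and 30 were rarer still. In all, 69 members (75.8%) were detected in some cell, against 44.9% of all genes. The other 22 reached 5 reads in none of the 40 cells, which by a limit of 3 cells allows a share of up to 7.5% of cells each, and 17 of them had no read at all. Detection depended on the level asked for, since at 50 CPM only HSPA2 and hsp70.3 remained in at least 90% of cells. The number of members detected per cell had a median of 20, from 9 in cell 1 to 62 in cell 40, which also had the most genes detected. Of 10 members detected in exactly 1 cell, 7 were in cell 40. All members together took a median of 8.31% of the reads of a cell, from 0.0423% in cell 1 to 28.4% in cell 11.

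The hsp70 class led these reads. The rows hsp70.1, hsp70.3, hsp70l, HSPA2 and hspa1b were summed as the hsp70 copies, because reads that fit several copies may have been divided by estimate. The sum held 67.5% of the mean CPM of all members, and 41.8% without HSPA2, the row of highest mean, whose identity with the inducible copies was not tested. Values of HSPA2, hsp70.3, hsp70.1 and hsp70l were not whole numbers, counting any decimals as deposited here and below, in 39, 40, 40 and 39 of the 40 cells. hsp70.1 and hsp70.3 lie beside hsp70.2 in the RefSeq gene table of assembly GRCz12tu, and hsp70l lies on another chromosome. hsp70.2 is not analysed here under that symbol, and the row named HSPA2 (ENSDARG00000092362) has no further annotation in the tables used here. The copies summed to a median of 47961 CPM, with 218.5 CPM in the lowest cell and 211493 CPM in the highest. Their mean was 58734 ± 54109 CPM (SD over 40 cells), and 64883 ± 48309 CPM over the 25 kept cells. The copies took a median of 4.80% of reads, and over 20% in cells 4 and 11. Without HSPA2 the sum had 111.6 CPM at the lowest, a median of 30828 CPM and 193370 CPM at the highest.

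**Figure D1:**
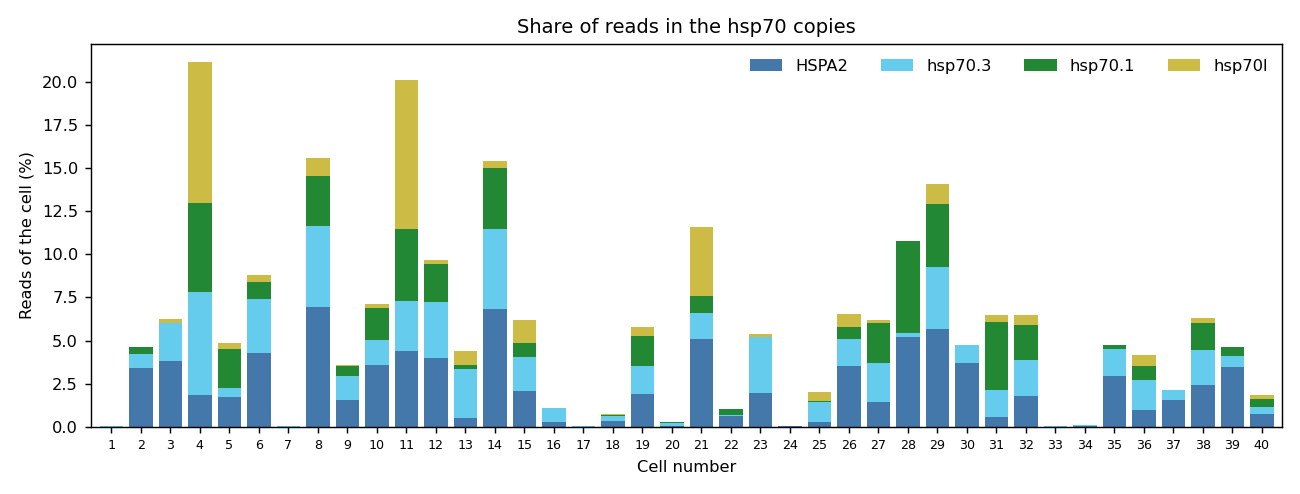
Share of all reads of each cell (%, stacked bars) in HSPA2, hsp70.3, hsp70.1 and hsp70l, for cells 1 to 40. Cells 4 and 11 reach 21.1% and 20.1%, cells 1, 7, 17, 20, 24, 33 and 34 stay at or under 0.299%, and the mix of copies differs from cell to cell.

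The estimated mix of copies differed widely between cells. HSPA2 took a median of 39.2% of the summed reads (8.42 to 78.8%), hsp70.3 took 29.3% (1.91 to 73.0%) and hsp70.1 took 19.6% (0.0704 to 60.4%). hsp70l, known in zebrafish larvae as a sensitive heat shock reporter gene that is also active in the lens, took 6.35% (0.0129 to 43.0%). Its level was 86533 CPM in cell 11, 81765 CPM in cell 4 and 40435 CPM in cell 21, against a median of 2040 CPM over 40 cells. In 8 cells it made up less than 1% of the sum. hsp70.1 reached 53331 CPM in cell 28. It stood at 8.96 CPM in cell 16 and 33.2 CPM in cell 30, whose copies summed to 10598 and 47199 CPM. Because the split between copies may be estimated, these shares are uncertain 1 by 1, and the sum is the firmer value. hspa1b reached 5 reads in no cell.

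The 7 lowest cells for the summed copies were the 5 with over 20% mitochondrial reads and the 2 with the highest shares of cardiomyocyte markers. Cells 17, 1, 24, 34 and 20, all over 20% mitochondrial, had 218.5, 278.1, 443.5, 1228 and 2994 CPM of the copies, and cells 7 and 33 had 228.6 and 225.7 CPM. The other 33 cells ranged from 7280 to 211493 CPM with a median of 61670 CPM. The 7 are named as the lowest for these copies, so their lack of overlap with the other 33 follows from that choice. Without HSPA2 the same 7 cells were the lowest, with 2508 CPM as the highest of the 7 and 3871 CPM as the lowest of the 33. How many genes outside the members were likewise lower in all 7 than in the other 33 was not counted. The 8 cells among these 33 that had under 2000 genes had 41590 to 211493 CPM. These 8 had 808 to 1885 genes and at least 1375958 total reads, while the 7 lowest cells had 161 to 1203 genes. Of the 7, cells 1, 7, 17, 20, 24 and 34 had 340293 to 988647 total reads, and cell 33 had 2973277. The part of depth in these values was not tested. The same 7 cells had 35.7 to 602 CPM of the summed hsp90 class, against 960 to 32815 CPM in the other 33. How many other genes or gene sets were likewise free of overlap was not counted. The hsp40, ubiquitin and small classes did overlap. Their highest values in the 7 were 181, 675 and 11639 CPM, and their lowest in the 33 were 28.6, 29.8 and 3.01 CPM. For hsp40 only cell 30 of the 33 lay under 181 CPM. For ubiquitin only cells 27 and 29 of the 33 lay under 675 CPM. The medians of the 33 were 5680 CPM for hsp40 and 6674 CPM for ubiquitin. Cells 7 and 33 had 1.99 and 4.29% mitochondrial reads, so they were low in the copies without a high mitochondrial share. Of the other 33 cells the lowest in the copies was cell 18, with 7 cardiomyocyte rows detected at 0.998% of its reads. Cell 40, with 8 such rows detected at 0.389%, had 18267 CPM of the copies. Cells 6, 27 and 32 had the next highest shares of these markers among the 33. They had 87777, 61670 and 64548 CPM of the copies, none under the median of the 33. Cell 11, with the macrophage markers, was the second highest of the 40 for the copies and the highest for the hsp90 class. Over all 40 cells the Spearman correlation (rho) of the copies with the mitochondrial share was -0.37, and over the 25 kept cells -0.12.

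**Figure D2:**
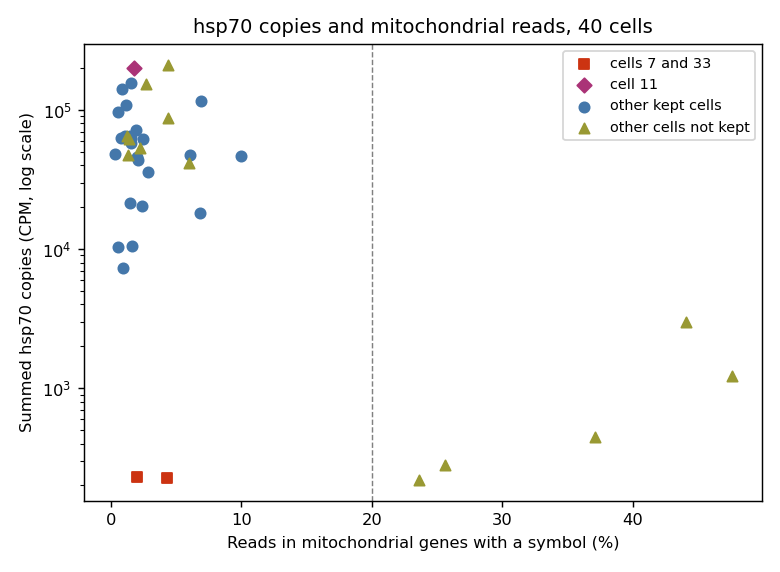
Summed hsp70 copies (CPM, log scale) against the share of reads in mitochondrial genes (%), 1 point per cell, with the dashed line at 20%. The 5 cells right of the line lie at or under 2994 CPM and cells 7 and 33 at 228.6 and 225.7 CPM, below the other 33 cells.

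Outside the copies, the hsp70 class held constitutive and organelle chaperones at lower coverage. HSPA8 (ENSDARG00000068992), the constitutive cytosolic hsp70, was detected in 39 of 40 cells (Wilson 95% interval 87.1 to 99.6%), with 2.91 CPM at the lowest, a median of 2850 CPM and 15205 CPM in cell 27. Its lowest values included cells 4 and 21, with 2.91 and 3.09 CPM, where the copies reached 211493 and 116147 CPM. HSPA4 (ENSDARG00000004754), a large relative of hsp70 that acts as its nucleotide exchange factor, was detected in 36 cells with a median of 253.5 CPM and 7102 CPM in cell 29. A second row named HSPA4 (ENSDARG00000018989) was detected in 4 cells, with 3092 CPM in cell 7, which carries cardiomyocyte markers. Cells 26, 40 and 11 had 242.9, 79.9 and 74.8 CPM of that row, and cell 33, with the same markers as cell 7, had 0 CPM. HSPA9, the mitochondrial hsp70, was detected in 14 cells and reached 50 CPM in 6, with 3203 CPM in cell 12. HSPA12B, a distant relative found in endothelium, was detected in 13 cells and reached 50 CPM in 4. HSPA14 and HSPA13 were detected in 2 and 3 cells. HSPA5, the hsp70 of the endoplasmic reticulum, is not analysed here.

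The hsp90 class had 4 members and a median sum of 6021 CPM (35.7 to 32815 CPM). HSP90AA1, the inducible cytosolic form in mammals, was detected in all 40 cells, with 4.50 CPM at the lowest, a median of 2095 CPM and 27808 CPM in cell 11. HSP90AB1, the constitutive form in mammals, was detected in 39 cells, with 1.03 CPM at the lowest, a median of 2191 CPM and 7206 CPM in cell 6. Each form was very low in a few cells in which the other was plentiful. Cells 12 and 8 had 1.03 and 4.27 CPM of HSP90AB1 but 14741 and 9408 CPM of HSP90AA1. Cells 16 and 2 had 4.50 and 5.58 CPM of HSP90AA1 but 5442 and 6555 CPM of HSP90AB1. hsp90aa1.1, which in zebrafish serves myosin folding in striated muscle, was detected in 22 cells but reached 50 CPM in 3, and all of its 26 values above 0 were not whole. HSP90B1, the form of the endoplasmic reticulum, was detected in 15 cells and reached 50 CPM in 8, with 3696 CPM in cell 11.

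By the mean over 40 cells, small heat shock proteins were represented almost entirely by HSPB1, an actin-protecting chaperone (2272 of 2359 CPM). HSPB1 was detected in 39 of 40 cells with 1.15 CPM at the lowest, a median of 833.3 CPM and 11639 CPM at the highest, and reached 50 CPM in 26 cells. Its highest value was in cell 17, whose hsp70 copies were the lowest of all at 218.5 CPM and whose mitochondrial share was 23.6%. Cell 33, with the cardiomyocyte markers, had 3533 CPM of HSPB1, and cell 7, with the same markers, had 27.4 CPM. High HSPB1 was thus also found where the hsp70 copies were near their minimum. HSPB8, a partner of BAG3 in selective autophagy, was detected in 14 cells and reached 50 CPM in 8, with 676.5 CPM in cell 6. In that cell HSPB1 had 2.91 CPM, so the lead of HSPB1 by the mean did not hold in every cell. hspb11 was detected in 2 cells, with 898.6 CPM in cell 29, and hspb9l in cell 40 alone. The muscle forms HSPB2, HSPB3 and hspb6, together with hspb9 and hspb15, reached 5 reads in 0 of 40 cells.

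The hsp40 class was the largest by gene number, and by the mean over cells its reads came mostly from dnajb1b. dnajb1b, the heat-inducible J protein partner of hsp70, was detected in all 40 cells with 6.57 CPM at the lowest, a median of 4170 CPM and 18158 CPM in cell 8. The summed class had a mean of 5580 ± 5273 CPM, of which dnajb1b gave 5094 ± 5059 CPM (SD over 40 cells). This did not hold in every cell: cell 25 had 76.7 CPM of dnajb1b in a class sum of 585.7 CPM. The lowest dnajb1b value was in cell 30, whose hsp70 copies stood at 47199 CPM. dnajb1b was not a whole number in 39 cells, and its relative dnajb1a is not analysed here. Among the rest of the class, 15 genes were detected in 10 to 90% of cells, 20 were rarer and 9 were detected nowhere. dnaja was detected in 14 cells, DNAJC7 in 11, DNAJA2 (ENSDARG00000010745) in 5 and DNAJC1 in 8. DNAJB12 (ENSDARG00000087473), which sits in the membrane of the endoplasmic reticulum, was detected in 28 cells but reached 50 CPM in 4, and dnajc5gb in 24 cells but reached it in 2. The median over 40 cells was 0 for 40 of the 45 genes, and 38 reached 50 CPM in 2 cells or fewer. Among those with a median of 0, dnaja had 2676 CPM in cell 11 and DNAJA2 had 1902 CPM in cell 31.

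The remaining classes were sparse apart from ubiquitin. HSPD1 and HSPE1, which encode the mitochondrial chaperonin and its lid, were detected in 4 and 7 of 40 cells. They lie side by side in the RefSeq table and were detected together in 2 cells, 14 and 40, which is 50% of the HSPD1 cells and 28.6% of the HSPE1 cells. Cell 40 had 62 members detected, the most of all cells, and the overlap was not set against that of other gene pairs. BAG3, an inducible co-chaperone that links hsp70 to small heat shock proteins, was detected in 16 cells and reached 50 CPM in 11, the highest being cell 29 at 3147 CPM and cell 19 at 1635 CPM. BAG6 (ENSDARG00000077531) was detected in 15 cells and reached 50 CPM in 3, and the other BAG genes in 2 cells or fewer, with 678.7 CPM of BAG4 in cell 18 and 333.7 CPM of bag1 in cell 9. The heat shock factor gene hsf1, the main switch of the response, was detected in 9 cells with 745.4 CPM in cell 14, and HSF2 in 12 cells with 1286 CPM in cell 19. Both factors were detected together in 3 cells. HSF4 was detected in cell 40 alone.

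Ubiquitin was carried by UBB (ENSDARG00000002369) and ubb (ENSDARG00000093313), and ubc is not analysed here. UBB was detected in all 40 cells with 12.6 CPM at the lowest, a median of 3702 CPM and 28782 CPM in cell 39. ubb had 0.416 CPM at the lowest, a median of 555.1 CPM and 4386 CPM, again in cell 39. Their values were not whole in 40 and 39 cells, ubb had a median of 12.1% of the reads of UBB in kept cells, and they ranked the kept cells almost alike (rho 0.95, Pearson r of log2(CPM + 1) 0.88, n = 25). Reads of these 2 rows may be divided between them by estimate, so they are not independent measures. Cells 27 and 29 had 29.1 and 29.5 CPM of UBB, although their hsp70 copies stood at 61670 and 140809 CPM.

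Single members were low in cells where most others were high. Among the 33 cells outside the 7 described above, each of the 11 widely detected members was set against 50 CPM. HSPA2 and hsp70.3 passed it in all 33 cells. HSPB1 lay below it in 9 cells, hsp70l in 8, HSPA4 in 6, HSPA8 and HSP90AB1 in 3 each, hsp70.1, HSP90AA1 and UBB in 2 each, and dnajb1b in 1. In all, 12 of the 33 cells had every member at or above 50 CPM and 21 had at least 1 below, of which 10 had 2 or more below and none over 4. These were 36 of 363 values (9.92%), of which 30 still had 5 or more reads. The share was 32.1% for the values of 182 other genes detected in at least 90% of the 40 cells. The 33 cells leave out the 7 lowest for the hsp70 copies, and HSPA2, hsp70.3, hsp70.1 and hsp70l are among the 11. The share of the members is thus partly set by that choice, and the 182 genes were not matched to them in level. In the other 7 cells, 3 to 9 of the 11 lay below.

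**Figure D3:**
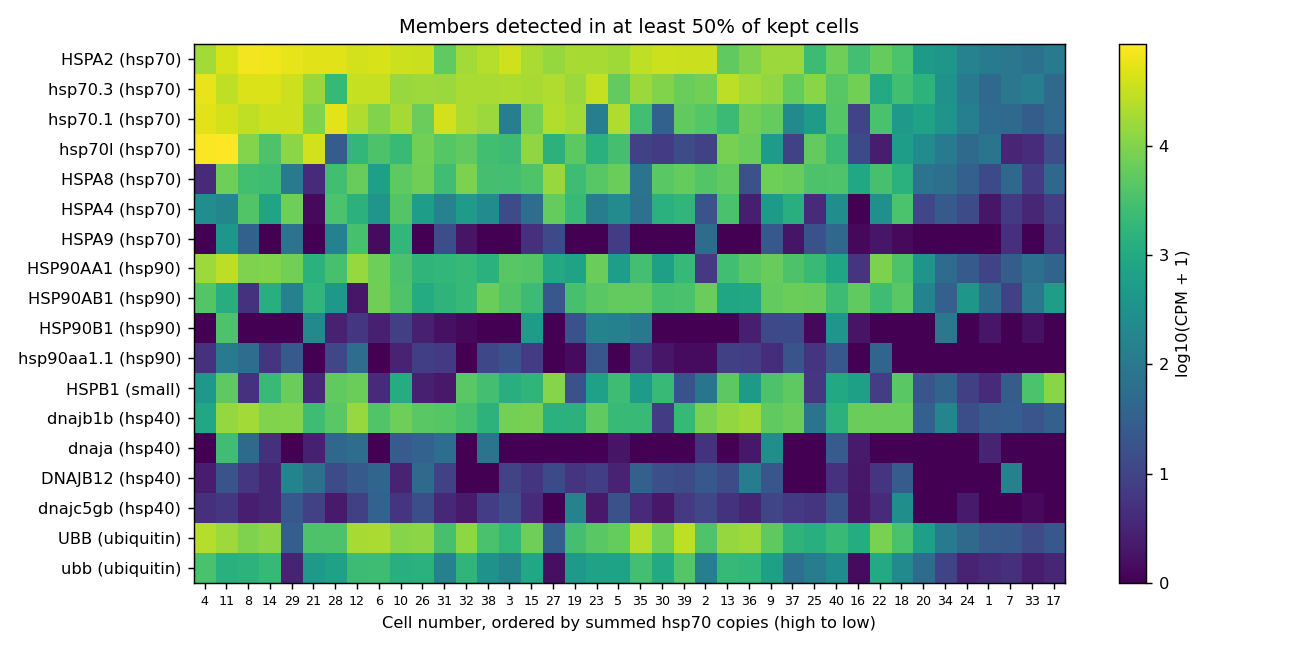
Level as log10(CPM + 1) (colour) of 18 members that at least 50% of kept cells held (rows, with class) in all 40 cells (columns, ordered by summed hsp70 copies from high to low). The 7 columns at the right are low in most rows, with HSPB1 at 11639 and 3533 CPM in cells 17 and 33, and low values of single members, such as HSP90AB1 in cells 8 and 12, interrupt the other columns.

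Co-variation was described over the 25 kept cells for the 18 members that at least 50% of them held, some of which may share reads. All correlations are over cells of 1 sample that differ in depth and genes detected, so no p-value is given. The median rho of the 153 pairs was 0.15, against 0.05 over all pairs of the 1561 genes detected as widely. Of the 153 pairs, 18 (11.8%) had a rho of at least 0.4, against 7.56% of pairs of all genes. The highest of the 18 were pairs of rows that may share reads. They were UBB with ubb (0.95), hsp70.3 with hsp70l (0.66), HSP90AA1 with hsp90aa1.1 (0.65) and HSPA2 with hsp70.1 (0.61). The excess over all genes was not counted without such pairs. Another 10 of the 153 pairs (6.54%) had a rho of -0.4 or lower, against 2.56%, and all 10 involved HSP90AB1. Among 9 members of a list of inducible genes (hsp70.1, hsp70.3, hsp70l, HSP90AA1, hsp90aa1.1, HSPB1, dnajb1b and both ubiquitin rows) the median rho was 0.24, and 0.15 without cells 11 and 18. Among HSPA8, HSPA9, HSP90AB1, HSP90B1 and DNAJB12, the 5 members detected widely enough out of 33 in a list of constitutive and organelle genes, it was -0.02. When detection in 10% of kept cells was enough to enter, these medians came to 0.0971 for inducible and 0.0780 for constitutive genes, and that of all members to 0.0656, so the difference between the lists depended on this threshold. Over all 40 cells the medians of the 2 lists were 0.47 and 0.16.

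**Figure D4:**
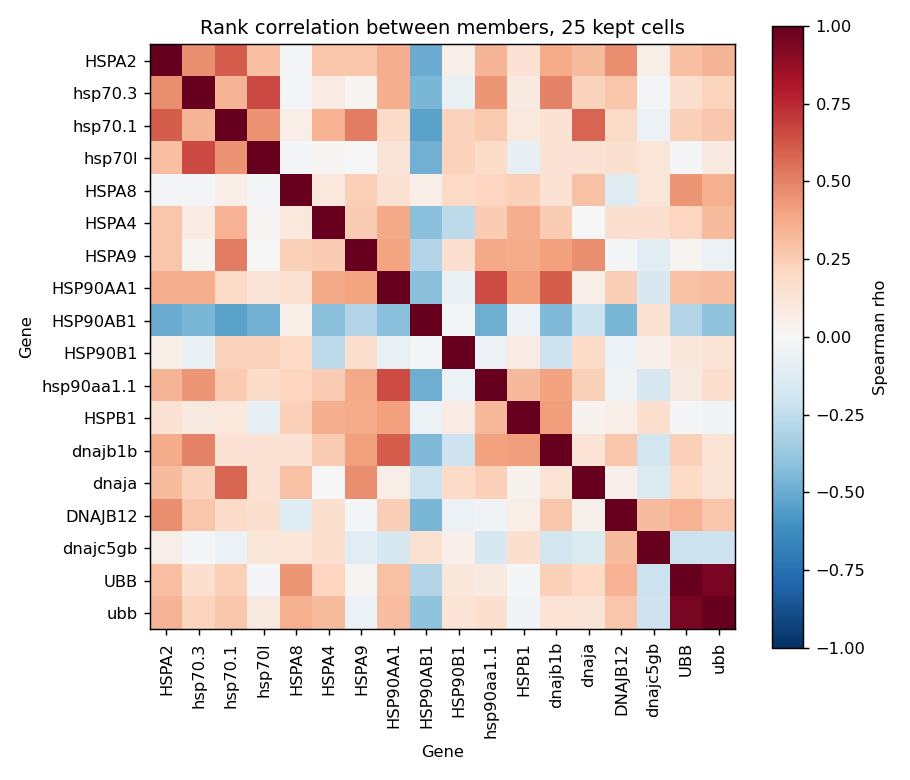
Spearman rho between the 18 members over the 25 kept cells (colour, red above 0 and blue below). The row of HSP90AB1 is blue for 15 of 17 partners, and the UBB and ubb pair is the strongest at 0.95.

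The classes did not move as 1 block. The summed hsp70 class had a rho of 0.42 with the hsp40 class, 0.30 with the ubiquitin genes, 0.06 with the small class and -0.08 with the hsp90 class (n = 25 kept cells). The value for hsp90 was -0.22 without cell 11 and 0.50 over all 40 cells. All 40 cells add the 7 low cells, low in both classes, and 8 other cells that were not kept. The part of each in that change was not tested. The small class had a rho of 0.45 with the hsp90 class. Between single members, HSP90AA1 ranked cells most like hsp90aa1.1 (0.65), whose reads may be shared with it, and dnajb1b (0.60, Pearson 0.16 on the log2 scale). hsp70.3 had 0.66 with hsp70l and 0.49 with dnajb1b, and HSPA2 had 0.61 with hsp70.1. The copies as a sum had a rho of -0.37 with the number of genes detected and -0.19 with total reads.

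HSP90AB1 had a rho below 0 with 15 of the 17 other members over the kept cells. Its rho with the hsp70 copies was -0.59 (Pearson -0.51 on the log2 scale, n = 25), -0.62 without HSPA2, between -0.65 and -0.54 when any 1 cell was left out, and -0.51 without cells 8 and 11, the farthest from the median of the copies. Its median rho with the other 17 members was -0.42, against -0.04 with all 1560 other genes. Its rho was at or below -0.4 for 10 of the 17, against 5.26% of all genes. Some of the 17, such as the hsp70 copies, may share reads, so the 10 are not independent. HSP90AA1 had a rho of 0.31 with the copies, which was 0.22 without cell 11 and 0.11 without cells 8 and 11. The log2 ratio of HSP90AA1 to HSP90AB1 reads, with 1 read added to each, ranged from -10.2 in cell 16 to 13.4 in cell 12, and HSP90AA1 had more reads in 12 of 25 kept cells. The ratio had a rho of 0.56 with the copies in kept cells and 0.51 over all 40. The rho of HSP90AB1 itself depended on the setting: it was -0.28 with median-of-ratios scaling, which sets each cell by the median ratio of shared genes to their average, and 0.06 over all 40 cells. The number of genes detected had a rho of 0.32 with HSP90AB1 and -0.34 with HSP90AA1, and the partial rho given that number kept the sign for HSP90AB1 with each hsp70 copy.

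**Figure D5:**
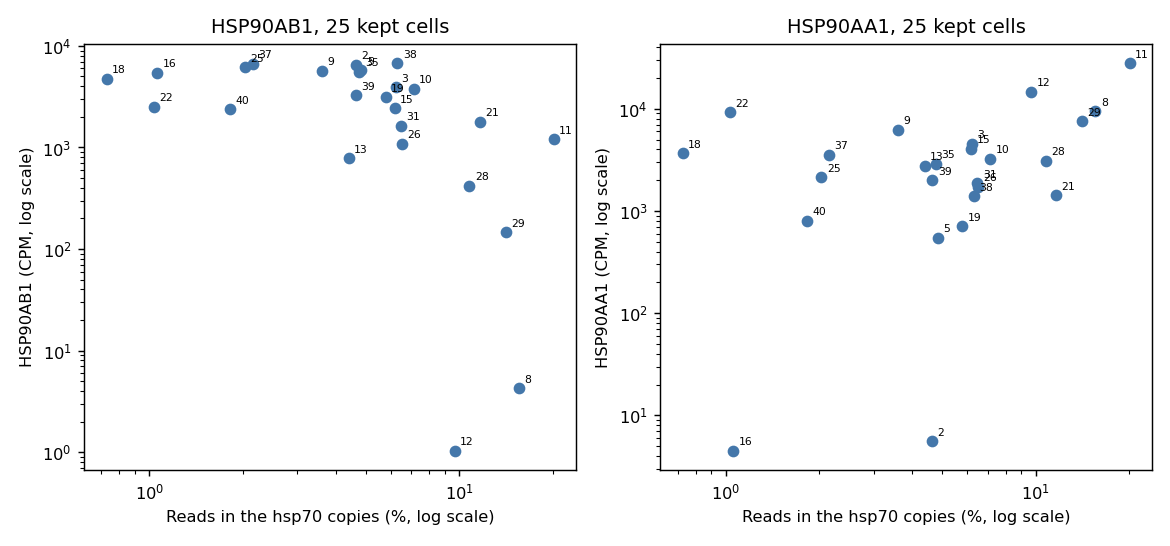
HSP90AB1 (left) and HSP90AA1 (right) in CPM against the share of reads in the hsp70 copies (%), both axes on a log scale, 1 numbered point per kept cell. HSP90AB1 falls to 1.03 and 4.27 CPM in cells 12 and 8 on the right side of its plot, and HSP90AA1 has its 2 low values in cells 16 and 2.

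Genes outside the members were ranked by their rho with the hsp70 copies, among 471 genes detected in at least 90% of kept cells. XBP1, a transcription factor of the unfolded protein response in the endoplasmic reticulum, stood first with 0.70, and 0.71 without cell 40. That rho is the highest of 471 and is not given here under other scalings or without cells 8 and 11. XBP1 was detected in all 40 cells, with 3.63 CPM at the lowest, a median of 1411 CPM and 10464 CPM in cell 36. exoc3l4 (0.54), the AP-1 gene FOSB (0.50) and CPE, which encodes a carboxypeptidase that trims prohormones (0.48), came next among the genes that have a gene name. Of the other 13 measured genes in the list for stress of the endoplasmic reticulum, only atf4b and DDIT3 were detected widely enough for a rho, at 0.18 and -0.12. At the other end stood ribosomal protein genes, named after their values were seen: RPL9 (-0.86), RPS25 (-0.75) and RPLP0 (-0.71). All 66 ribosomal protein genes detected in at least 50% of kept cells had a rho below 0 with the copies, with a median of -0.45, against 0.00 for 1477 other genes that are not members. Their median rho was 0.43 with HSP90AB1 and -0.35 with HSP90AA1. Their summed share of reads in kept cells ranged from 0.715% in cell 29 to 9.65% in cell 39 and had a rho of -0.62 with the copies. That value was -0.51 when both were scaled to the reads of genes that are not members. It was -0.23 with median-of-ratios scaling, where 59 of 66 lay below 0, and -0.03 over all 40 cells.

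Immediate early genes, which respond to a stimulus within minutes, were measured in the same cells. The 28 measured genes of that list took a median of 6.46% of reads over 40 cells, and 13 were detected in at least 90% of them, a level reached by 0.572% of all genes. Their sum had a rho of 0.34 with the summed hsp70 class in kept cells, 0.52 without cell 11 and 0.60 over all 40 cells. Cell 11 had 20.1% of its reads in the hsp70 copies but 1.77% in the immediate early genes, while cell 8 was high in both, at 15.6% and 19.8%. Cell 17 had 3.46% in the immediate early genes with 0.0219% in the copies. In the 33 cells outside the 7 low ones the rho was 0.32. Of 16 measured genes in the list of other co-chaperones and heat shock response genes, only SQSTM1, a cargo receptor of autophagy, was detected in at least 90% of cells, while 10 fell between 10 and 90%, 4 below that and 1 nowhere. The level of SQSTM1 had a median of 802.5 CPM and 23376 CPM in cell 28. HSPH1, an hsp110 partner of hsp70, was detected in 14 cells, SERPINH1 (ENSDARG00000019949), the collagen chaperone, in 17, and FKBP5, a co-chaperone of hsp90, in 22 with 10654 CPM in cell 19.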

How the data were processed

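The authors deposited 1 table of expected counts (estimated reads per gene that need not be whole) with 1 column for each of 40 cells, and 0 columns had no sample. Bowtie2, RSEM 1.2.12 and the Zv9 build are named per the submitters' processing notes. What each did, its settings and the strand used in counting are not given in the sources. No molecular identifiers are named in the labels' protocols, so intervals cover the counting of cells only. Symbols came from the supplied gene name table, which names 21939 genes (65.0%) and prints many in capitals. Symbols of lists were matched ignoring case, then without the copy letter or number.

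Computed here were CPM, detection at 5 reads, class sums, Wilson 95% intervals, and Spearman correlations, with the RefSeq table used only for gene order. Each class names its 4 members of highest mean, and further members were named after their values were seen. The members and lists were chosen with earlier results of these data known. HSPBAP1 and HSF2BP count as members but in no class, and both reached 5 reads in no cell. Near-identical copies were not compared by sequence and promoter motifs were not searched, as no sequences were used here. No doublet caller was run on 40 cells. The correlation step was tested on simulated cells. Python 3.11.15, pandas 2.3.3, numpy 2.4.6, scipy 1.17.1 and statsmodels 0.14.6 were used.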

Additional observations from a re-analysis of the deposited data

How the results depend on the processing

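Mean levels of the 5 main classes and the share of reads moved by less than 1 SD over cells under all 6 alternatives run. That limit is wide, since the SD was 55230 CPM beside a mean of 63407 CPM for hsp70, and 5273 beside 5580 CPM for hsp40. Over the alternatives the mean ran from 64196 to 74623 CPM for hsp70 and from 5458 to 7179 CPM for hsp40. Members detected in at least 90% of cells numbered 7 at 20 reads and 2 at 50 CPM instead of 11, and members in no cell 40 at 50 CPM instead of 22. Over all 40 cells, the median rho was 0.32 for members, 0.47 for the inducible list and 0.16 for the constitutive list. The rho of the hsp70 class was then 0.50 with hsp90, 0.53 with hsp40 and 0.60 with immediate early genes, and that of the copies 0.0630 with HSP90AB1, 0.65 with HSP90AA1 and -0.0345 with ribosomal protein genes. With median-of-ratios scaling, over 582 genes above 0 in every kept cell, the medians were 0.22 for members and 0.0463 for the constitutive list, hsp70 with hsp90 was 0.18, and the copies had -0.28 with HSP90AB1 and -0.23 with ribosomal protein genes. When 10% of kept cells sufficed for a member to enter, the medians were 0.0656, 0.0971 and 0.0780 for members, the inducible and the constitutive list. Without cells 11 and 18, a choice made after seeing the data, they were 0.10, 0.15 and 0.0116, and hsp70 with immediate early genes was 0.57. Without cell 40 the constitutive median was 0.00848. Scaled to the reads of genes that are not members, hsp70 with hsp90 was 0.0677 and the copies with ribosomal protein genes -0.51. Given genes detected per cell, hsp70 with hsp40 was 0.31. The causes were not tested. No paired analysis was possible because all cells belong to 1 group. The constitutive median and the rho of hsp70 with hsp90, both slightly below 0 in the 25 kept cells, thus changed sign with several settings.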

Other observations

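Other stress and chaperone lists were counted in the same way, where 0.572% of all genes were detected in at least 90% of 40 cells. Of 14 measured genes for stress of the endoplasmic reticulum, 2 were detected in at least 90% of 40 cells, XBP1 and atf4b, and DDIT3 was detected in 34. Of 7 subunits of the cytosolic chaperonin containing TCP1, which folds actin and tubulin, 0 were detected in at least 90% and all 7 in 10 to 90%. CCT4 had 6973 CPM in cell 33, which carries cardiomyocyte markers, against a median of 1.14 CPM over 40 cells. Its level in cell 7, with the same markers, is not given here, so a link to the markers was not tested. Of 11 oxidative stress genes, 0 were detected in at least 90% and 6 in 10 to 90%, with HMOX1, which breaks down heme, in 20 cells and 4099 CPM at the highest in cell 3. Median rho with the hsp70 copies over kept cells was 0.26 for 14 members other than the copies, 0.11 for 20 immediate early genes and -0.01 for 1543 genes outside the members.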
